A study of Mus musculus with 2 samples.

Results

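The RNA of 10 microglial genes for lipid-sensing and orphan G protein-coupled receptors (GPCRs) was described in sorted mouse brain microglia, and in the few macrophages sorted with them, from awake and anesthetized animals. The genes were chosen by symbol: Gpr34, Gpr183, Gpr84, Gpr65, Gpr132, S1pr1, Lpar5, Lpar6, Ptafr and Adgrg1. All 10 symbols were found, each as 1 of the 55450 gene identifiers counted, and 8 of the 10 reached the 200 unique molecular identifiers (UMIs) over both libraries that counted as measured. The comparison sets microglial RNA under pentobarbital anesthesia against that of waking animals.

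The cells came from adult male C57BL/6J mice, an inbred strain. The awake group was 3 mice injected with saline, and the anesthesia group was 3 mice injected with 100 mg/kg sodium pentobarbital, a barbiturate anesthetic. The labels give the genotype of both groups as C57 and name no engineered allele. Cells positive for CD11b with low CD45 were sorted and captured with the 10x Genomics 3' chemistry, which counts each captured RNA molecule once by its UMI. Each group has 1 library, and whether the 3 mice were pooled before capture is not given in the sources used here. No difference below has a replicate or a test behind it. Every interval is a 95% interval for counting error only, and the library and the condition cannot be told apart.

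GPCRs of this kind let microglia read lipids that leak from or are released by their surroundings. Lysophospholipids, oxysterols, medium-chain fatty acids, sphingosine 1-phosphate and platelet-activating factor each have a receptor among the 10, and acidic pH has one too. The receptors pass the signal to heterotrimeric G proteins, which steer movement, cytokine release and process extension. Adgrg1, an adhesion GPCR, is instead bound by matrix proteins and by exposed phosphatidylserine, and is known as a marker of brain-resident microglia.

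The awake library held 8600 barcodes and the anesthesia library 9412, with medians of 5883 and 5347 UMIs. Filters on genes, UMIs and mitochondrial share kept 8223 and 8944 cells. Clusters of microglia-like cells, in which all 10 microglial markers were widely detected and which did not lead with markers of another class, held 7379 awake and 8169 anesthesia cells. These cells summed to 48077365 and 56066605 UMIs, with medians of 6001 and 5492 UMIs per cell. Border-associated macrophage-like cells, named from markers such as Mrc1, Lyve1 and Cd163, numbered 50 and 42. Endothelial-like cells numbered 113 and 136, and a small unnamed cluster led by Ttr, a choroid plexus gene, held 41 and 79. Barcode sequences found in both libraries numbered 14. The microglia-like cells of the libraries hardly mixed: awake cells lay mainly in clusters 0 and 3, and anesthesia cells in clusters 1, 2 and 4. Their median mitochondrial share was 1.32% for awake cells and 2.13% for anesthesia cells. Unnamed clusters held another 660 awake and 594 anesthesia cells, the Ttr-led cells included. The markers P2ry12, Tmem119 and Cx3cr1 were abundant in both libraries. P2ry12 stood at 1803 and 1699 counts per 1000000 UMIs (CPM), Tmem119 at 1477 and 1134 CPM, and Cx3cr1 at 2801 and 2898 CPM.

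The promoter windows of 3 receptor genes are shown. Gpr183 and Gpr65 were chosen because they had the largest increases between the libraries. Gpr84 was chosen for the highest ratio of variance to mean between cells. Each window runs from 250 bases before to 50 bases after the RefSeq start (GRCm38.p6) and is written 5′ to 3′ on the strand of the gene. Capitals mark a match to a searched motif. The windows are chr14:121965144-121965443 on the minus strand for Gpr183, chr12:98268385-98268684 on the plus strand for Gpr65 and chr15:103310389-103310688 on the minus strand for Gpr84.
Gpr183: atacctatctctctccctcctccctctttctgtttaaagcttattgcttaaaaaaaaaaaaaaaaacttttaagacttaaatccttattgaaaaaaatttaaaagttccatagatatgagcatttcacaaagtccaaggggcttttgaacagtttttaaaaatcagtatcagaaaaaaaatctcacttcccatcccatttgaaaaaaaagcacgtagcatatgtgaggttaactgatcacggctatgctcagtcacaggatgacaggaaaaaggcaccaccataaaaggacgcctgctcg
Gpr65: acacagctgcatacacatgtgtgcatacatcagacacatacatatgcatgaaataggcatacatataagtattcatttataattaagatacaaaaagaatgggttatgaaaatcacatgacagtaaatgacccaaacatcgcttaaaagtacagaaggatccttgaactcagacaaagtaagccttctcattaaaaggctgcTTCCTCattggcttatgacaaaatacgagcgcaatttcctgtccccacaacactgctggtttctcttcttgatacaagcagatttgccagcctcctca
Gpr84: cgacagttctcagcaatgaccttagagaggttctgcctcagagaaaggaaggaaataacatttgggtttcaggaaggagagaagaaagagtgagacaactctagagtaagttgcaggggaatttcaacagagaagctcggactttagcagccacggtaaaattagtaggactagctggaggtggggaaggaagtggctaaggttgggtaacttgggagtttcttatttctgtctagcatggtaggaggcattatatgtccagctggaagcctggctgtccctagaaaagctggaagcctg

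RefSeq windows were matched for 8 of the 10 genes, 10 windows in all. Gpr34 and S1pr1 are named only. The motifs searched on both strands were GAGGAA (the core bound by the ETS factor PU.1), TGANTCA (AP-1), CACCC (KLF factors) and CACGTG (an E-box), and no matches overlapped. In Gpr65 the capitals mark the reverse complement of GAGGAA, 48 bases before the start. GAGGAA or its complement was present in 28.3% of all 32851 promoter windows of this length. The Gpr183 and Gpr84 windows held none of these letters. Among the windows that are not printed, the second of Adgrg1 held 2 copies of TGANTCA, a motif found in 7.81% of all windows. Ptafr held 3 copies of CACCC, which 57.5% of all windows contain, and CACGTG, found in 7.15% of all windows, was in none of the 10.

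The receptor genes differed widely in level. Per kilobase of the longest annotated transcript, Gpr34 was highest in both libraries, at 547 CPM per kilobase awake and 324 under anesthesia. Gpr84 followed at 229 and 210, Adgrg1 at 94.5 and 80.7, and Gpr183 at 33.4 and 72.1 CPM per kilobase. The counting tags only 3′ ends and counts each captured molecule once, so a level per length understates long transcripts. Undivided, Gpr84 was at 394 and 363 CPM and Adgrg1 at 342 and 292 CPM. Ptafr came next at 23.4 and 27.4 CPM per kilobase. Below it the order on this scale changed. Lpar6 was at 8.15 and 7.75, S1pr1 at 6.05 and 9.52, and Gpr65 at 3.67 and 7.14 CPM per kilobase. In CPM, not divided by length, their order was the same in both libraries. Lpar6 was at 44.0 and 41.8, S1pr1 at 18.4 and 29.0, and Gpr65 at 7.59 and 14.8 CPM. Gpr132 and Lpar5 were lowest, at 0.436 and 0.243 CPM per kilobase awake. Per kilobase, the counting intervals of most neighbours did not overlap. Only those of Gpr132 and Lpar5 did so in both libraries, and those of Lpar6 and Gpr65 under anesthesia.

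**Figure D1:**
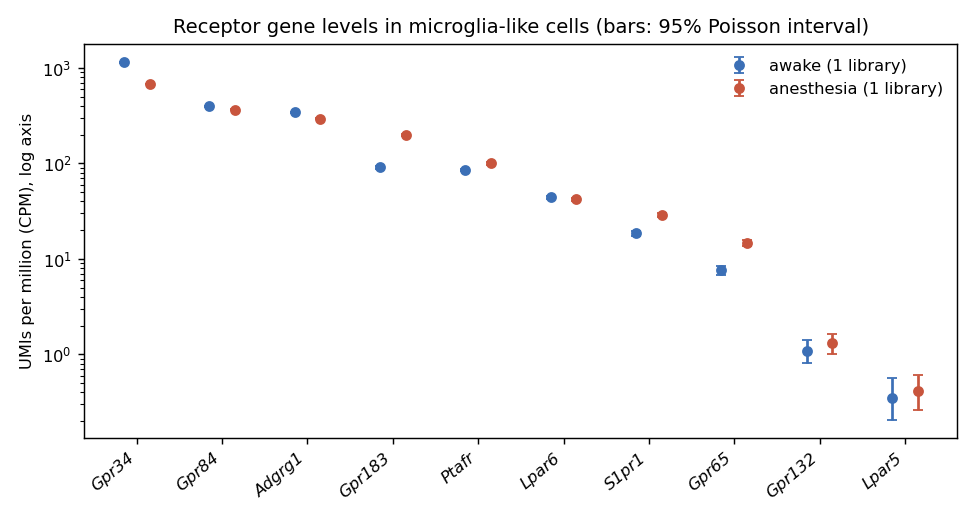
Level of the 10 receptor genes in microglia-like cells of the awake and the anesthesia library, in CPM on a log axis. Points are library sums and bars 95% Poisson intervals; Gpr34 reached 1142 CPM awake and Lpar5 0.354 CPM.

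Of the 8 measured receptor genes, 3 (Gpr183, Gpr65 and S1pr1) were at least 1.5-fold higher in the anesthesia library and 1 (Gpr34) was at least 1.5-fold lower. Among all 11390 genes measured in the microglia-like cells, 13.2% were at least 1.5-fold higher and 12.0% at least 1.5-fold lower. With 8 genes, these counts are a description and not a result about the group. The median log2 ratio of the 8 was 0.08, beside -0.02 for all measured genes. Summed over the 8, receptor RNA was 2124 CPM awake and 1713 CPM under anesthesia, and Gpr34 made up 53.8% and 39.5% of that sum.

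**Figure D2:**
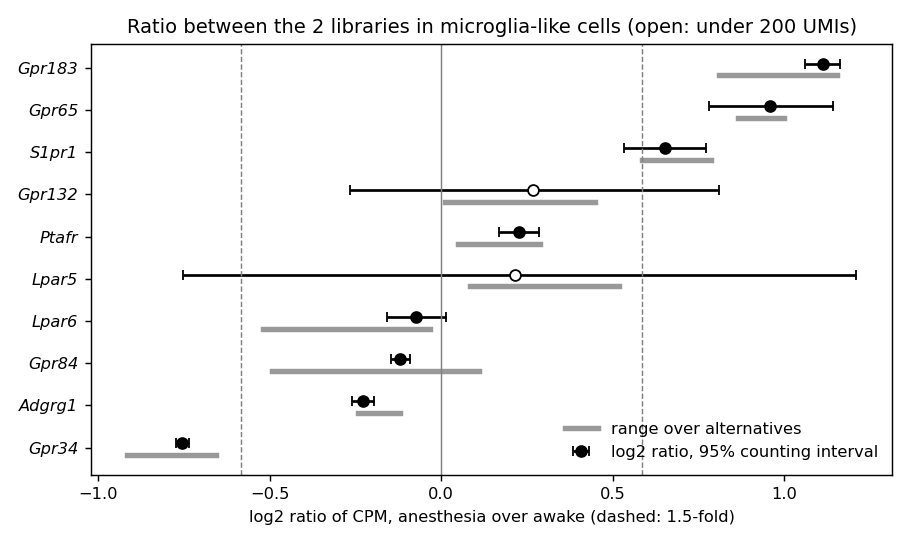
Log2 ratio of CPM in microglia-like cells, anesthesia over awake, for each receptor gene. Points with bars are the ratio and its 95% counting interval, open points had under 200 UMIs, grey bars span the processing alternatives, and dashed lines mark 1.5-fold; Gpr183, Gpr65 and S1pr1 lie to the right and Gpr34 to the left.

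Gpr34, on the X chromosome at 13632089 to 13640858 (GRCm38, plus strand), encodes a receptor for lysophosphatidylserine. It lies inside Cask, which is on the other strand. Its level in microglia-like cells was 1142 CPM (1132 to 1151) awake and 676 CPM (669 to 683) under anesthesia. The log2 ratio was -0.76 (-0.77 to -0.74), so the gene was 1.69-fold higher in the awake library. The levels of the main clusters of the libraries did not overlap: clusters 0 and 3 of the awake library stood at 1195 and 1122 CPM. The anesthesia clusters 1, 2 and 4 stood at 726, 682 and 631 CPM. Main clusters did not overlap either for Gpr183, Gpr65, S1pr1, Ptafr, Adgrg1 and Lpar6, though the ratio interval of Lpar6 held 0. How often this occurs over all genes was not counted. With 2 awake and 3 anesthesia main clusters, a lack of overlap says little about any 1 gene. In all 6 clusters with at least 50 cells of each library, the interval of the Gpr34 ratio lay below 0. The log2 ratios ran from -0.92 to -0.37. In clusters 0 to 3 the library with fewer cells gave only 71 to 92, so within-cluster ratios set few cells beside many.

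Gpr34 was found in fewer anesthesia cells, and cells with many of its UMIs were fewer too. With every cell thinned to 2000 UMIs, the share of microglia-like cells with at least 1 Gpr34 UMI was 85.9% (85.1 to 86.7) awake and 70.6% (69.6 to 71.6) under anesthesia. Without thinning the shares were 98.2% and 92.3%. Cells with 4 or more UMIs were 21.5% of awake and 6.88% of anesthesia cells. Free RNA gives UMIs in cells that do not express a gene. In thinned endothelial-like cells, which should lack the gene, the share was 22.6% awake and 33.6% under anesthesia, at median depths of 5507 and 5142 UMIs. These endothelial-like cells also held the microglial markers at 30.9% and 61.1% of the microglia-like sum, and the part of this in their Gpr34 was not tested.

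Gpr183 (chromosome 14, 121952551 to 121965195, minus strand, inside Ubac2 on the other strand) encodes the oxysterol receptor EBI2, which guides immune cell migration. It was the receptor gene with the largest increase. Its level was 90.9 CPM awake and 196 CPM (193 to 200) under anesthesia, 2.16-fold higher, with a log2 ratio of 1.11 (1.06 to 1.16). The share of thinned cells with a UMI was 14.7% (13.9 to 15.6) awake and 26.7% (25.7 to 27.6) under anesthesia, beside 0 of 106 and 9.60% in endothelial-like cells. A count of 0 in 106 cells allows a share of up to 2.83%. Unthinned, the microglial shares were 36.8% and 51.6%.

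The ratio of variance to mean of the thinned Gpr183 UMIs was also higher under anesthesia. It was 1.22 awake and 1.71 under anesthesia, where 1 would be the value for cells that differ only by counting. Where cells differ, this ratio grows with the mean, which was 0.175 UMIs per thinned cell awake and 0.393 under anesthesia. The 10% of cells with the most Gpr183 held 73.0% of its UMIs awake and 57.7% under anesthesia. Cells with 4 or more UMIs were 0.124% of awake and 1.13% of anesthesia cells. Among the anesthesia clusters, cluster 2 had the highest level, 284 CPM, against 201 CPM in cluster 4 and 129 CPM in cluster 1. In the awake library cluster 0 was at 110 CPM and cluster 3 at 70.2 CPM. Although the receptor genes were kept out of the genes used for clustering, Gpr183 was the leading gene of cluster 2. Within clusters the interval lay above 0 in 5 of 6. The exception was cluster 7, led by Clec7a, Lpl and Cst7, at 95.6 CPM awake and 90.0 CPM under anesthesia.

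S1pr1 (chromosome 3, 115710433 to 115715072, minus strand) encodes the sphingosine 1-phosphate receptor that is most abundant in endothelium. Its microglia-like level was 18.4 CPM (17.2 to 19.7) awake and 29.0 CPM (27.6 to 30.4) under anesthesia, a log2 ratio of 0.65 (0.53 to 0.77). Endothelial-like cells held far more, 241 CPM awake and 490 CPM under anesthesia. The microglial level was thus 7.64% and 5.91% of the endothelial level. The 10 endothelial markers stood in microglia-like cells at a median of 0.288% and 0.310% of their endothelial level, and at most at 3.82% and 4.96%. Their summed level in microglia-like cells was lower under anesthesia, 51.9 CPM beside 65.2 CPM awake, with none at 0. In microglia-like cells without any UMI of an endothelial marker, the S1pr1 log2 ratio was 0.58, just under 1.5-fold.

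Thinned shares of cells with an S1pr1 UMI were low, 3.61% awake and 5.67% under anesthesia, and 10.4% and 15.5% without thinning. The Ttr-led cluster served as the background here, since endothelial cells use the gene. Its shares were 2 of 33 cells, 6.06% (0.743 to 20.2), and 1 of 58 cells, 1.72% (0.0436 to 9.24), at median depths of 5357 and 4813 UMIs. Both microglial shares lay inside these intervals and were not separable from that background. By level, the Ttr-led cluster was at 12.4 CPM (3.39 to 31.8) awake, which includes the microglial level, and at 14.2 CPM (6.14 to 28.0) under anesthesia, below the microglial 29.0 CPM. The cluster itself held microglial markers at 36.6% and 43.8% of the microglia-like sum. Within clusters the interval of the S1pr1 ratio lay above 0 in 1 of 6, with log2 ratios from -0.22, in cluster 7, to 1.91.

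Ptafr (chromosome 4, 132564067 to 132582683, plus strand) encodes the receptor for platelet-activating factor. It was at 85.1 CPM awake and 99.7 CPM (97.1 to 102) under anesthesia, a log2 ratio of 0.23 (0.17 to 0.29). Its share of thinned cells was 15.5% and 18.6%, beside 2.83% and 4% in endothelial-like cells, and 38.8% and 42.2% unthinned. Averaged within clusters the log2 ratio was 0.05, and the interval lay above 0 in 1 of 6 clusters.

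The lysophosphatidic acid receptor genes Lpar6 and Lpar5 differed greatly in level but neither differed detectably between the libraries. Lpar6 (chromosome 14, 73237895 to 73243294, plus strand) shares exon bases with Rb1, a tumour suppressor gene on the other strand. Its level was 44.0 CPM (42.1 to 45.9) awake and 41.8 CPM (40.2 to 43.6) under anesthesia, and the interval of the log2 ratio of -0.07 held 0 (-0.16 to 0.01). The share of thinned cells was 8.63% and 7.88%, beside 6.06% and 6.90% in the Ttr-led cluster, whose intervals include both, and 22.7% and 21.6% unthinned. Rb1 itself had 1538 and 1721 UMIs in these cells. Whether the counting used the read strand is not given in the sources used here, so reads of the shared bases cannot be assigned with certainty.

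Lpar5 (chromosome 6, 125067920 to 125082472, plus strand) had 17 awake and 23 anesthesia UMIs in all microglia-like cells together. Its level was 0.354 CPM (0.206 to 0.566) and 0.410 CPM (0.260 to 0.616), and a difference was not detectable at this depth. In thinned cells 4 of 7277 awake and 6 of 8037 anesthesia cells had a UMI. No Lpar5 UMI was found in endothelial-like cells of either library.

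Gpr84 (chromosome 15, 103308235 to 103310612, minus strand) encodes a receptor activated by medium-chain fatty acids and known to rise in inflamed microglia. It shares exon bases with the antisense gene Gm49482, which had 12 awake and 34 anesthesia UMIs beside 18951 and 20348 of Gpr84. The sums of the libraries were close, 394 CPM (389 to 400) and 363 CPM (358 to 368), a log2 ratio of -0.12 (-0.15 to -0.09). Among the 10 genes, Gpr84 had the highest ratio of variance to mean between cells in both libraries. Because this ratio grows with the mean where cells differ, it does not rank the spread of genes of unlike level. That ratio of variance to mean in thinned cells was 2.18 awake and 1.99 under anesthesia, beside 1.05 and 1.07 for Adgrg1, a gene of similar CPM.

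Most thinned cells showed no Gpr84 UMI, and a small share showed many. Thinned cells with a UMI were 40.7% awake and 40.2% under anesthesia, beside 3.77% and 20% in endothelial-like cells, and 67.8% and 65.2% unthinned. The 10% of cells with the most Gpr84 held 49.6% of its UMIs awake and 48.5% under anesthesia. For Adgrg1 the top 10% held 35.7% and 39.6%. Cells with 4 or more Gpr84 UMIs were 4.05% and 3.72%, whereas for Adgrg1 they were 0.577% and 0.448%.

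**Figure D3:**
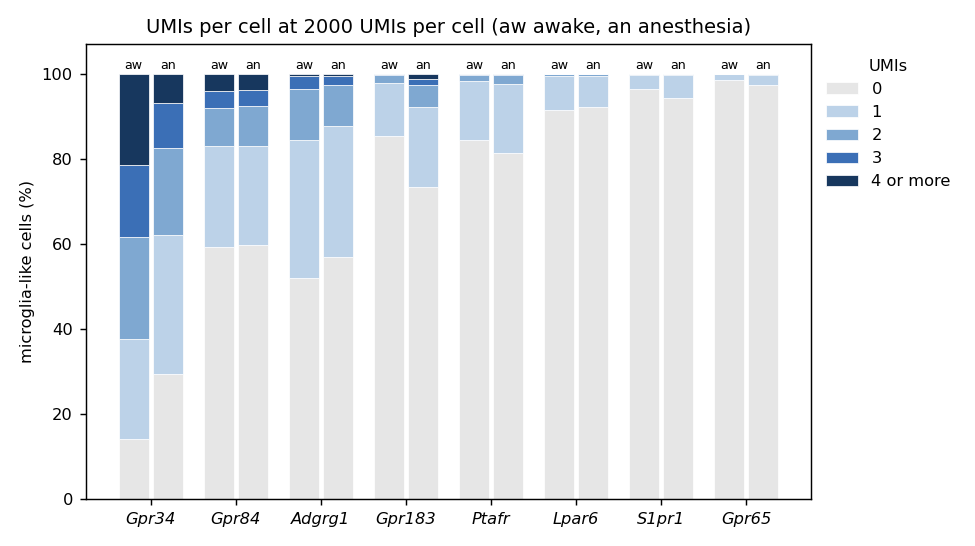
Share of microglia-like cells with 0, 1, 2, 3 and 4 or more UMIs of 8 receptor genes, with each cell thinned to 2000 UMIs (aw awake, an anesthesia, 1 library each). Cells with 4 or more Gpr34 UMIs were 21.5% awake and 6.88% under anesthesia, and cells with any Gpr183 UMI 14.7% and 26.7%.

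The Gpr84 spread followed the clusters. In the awake library cluster 0, led by Klf2 and Tsc22d3, held 216 CPM and cluster 3, led by genes such as Sbno2, Phlda1 and Socs3, held 551 CPM. In the anesthesia library cluster 2 held 171 CPM, cluster 4 held 341 CPM and cluster 1, led by Nr4a3, Cxcl2 and other immediate early and cytokine genes, held 533 CPM. The share of thinned cells with a UMI was 28.5% in cluster 0 and 54.4% in cluster 3 awake, and 23.7% in cluster 2 and 54.4% in cluster 1 under anesthesia. Within 5 of 6 clusters the interval of the Gpr84 ratio lay below 0, with log2 ratios from -0.92 to -0.12 over the 6. In cluster 1 it was 1010 CPM in 89 awake cells and 533 CPM in 3242 anesthesia cells. The within-cluster mean was -0.49, further from 0 than the ratio over all cells. Both the immediate early and the cytokine lists had been kept out of the genes used to cluster.

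**Figure D4:**
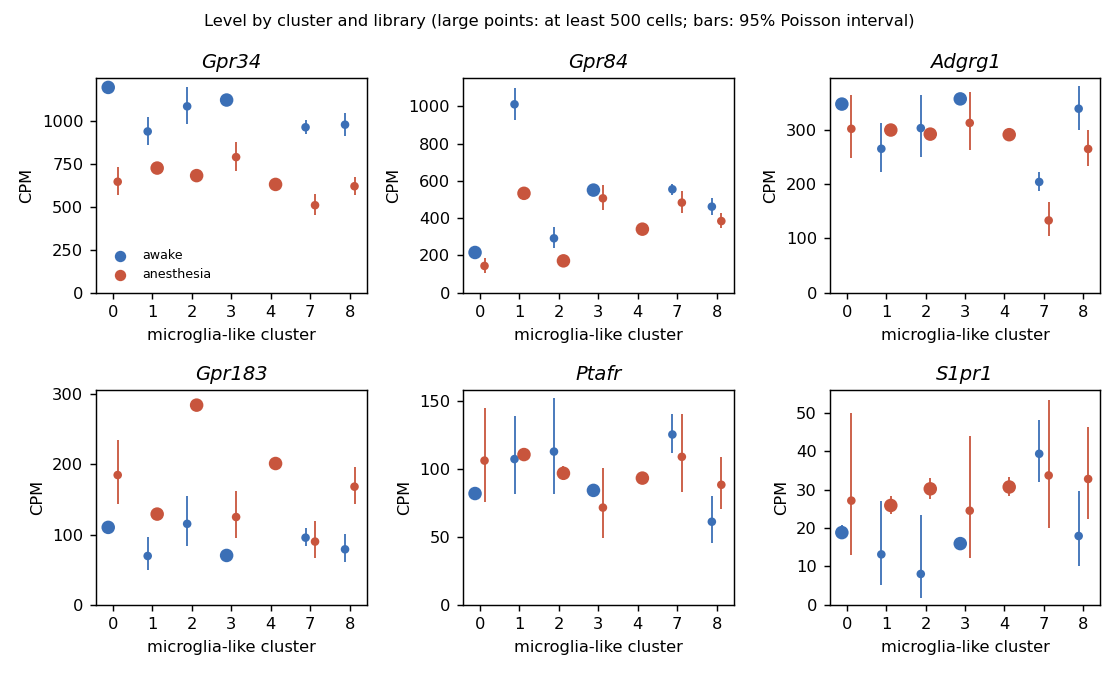
Level (CPM) of 6 receptor genes in each microglia-like cluster with at least 50 cells of a library, by library, with 95% Poisson intervals; large points are clusters with at least 500 cells. Gpr34 and Gpr84 are both lower in the anesthesia library in all 6 clusters with cells of both, though the interval for Gpr84 in cluster 3 held 0. Gpr84 also differs between clusters of a library, such as 216 CPM in awake cluster 0 and 551 CPM in awake cluster 3.

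Gpr65 (chromosome 12, 98268635 to 98276644, plus strand) encodes a proton-sensing receptor of immune cells. In microglia-like cells it was at 7.59 CPM (6.83 to 8.41) awake and 14.8 CPM (13.8 to 15.8) under anesthesia, 1.95-fold higher, with a log2 ratio of 0.96 (0.78 to 1.14). Cells with a UMI were few, 1.48% and 2.71% after thinning and 4.27% and 7.94% before. Among endothelial-like cells they were 0 of 106 and 1 of 125, 0.800% (0.0203 to 4.38). The endothelial-like levels, 2.86 and 8.01 CPM, rested on 2 and 9 UMIs. The intervals of their ratio to the microglial level held 0 in both libraries, so the levels were not separable at this depth. These endothelial-like cells also held the microglial markers at 30.9% and 61.1% of the microglia-like sum. They are thus not a background free of microglial RNA. Their Gpr65 was at 37.6% and 54.2% of its microglia-like level, and the source of this RNA was not tested. Gpr65 was highest in cluster 7 in both libraries, at 23.4 CPM awake and 45.0 CPM under anesthesia, beside 7.86 CPM in awake cluster 0. The interval of its ratio lay above 0 within 3 of 6 clusters, and an antisense gene, Gm47566, had 0 and 2 UMIs.

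Gpr132 (chromosome 12, 112850873 to 112868228, minus strand) encodes a receptor related to Gpr65 that responds to oxidized fatty acids. It had 52 awake and 73 anesthesia UMIs, 1.08 CPM (0.808 to 1.42) and 1.30 CPM (1.02 to 1.64), and the interval of the log2 ratio of 0.27 held 0 (-0.27 to 0.81). Thinned cells with a UMI were 12 of 7277 and 19 of 8037. No difference was detectable at this depth, and endothelial-like cells had no UMI of it.

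Adgrg1 (chromosome 8, 94974751 to 95014217, plus strand), also named Gpr56, was at 342 CPM (337 to 347) awake and 292 CPM (288 to 296) under anesthesia, a log2 ratio of -0.23 (-0.26 to -0.20). It was nearly level across the main clusters: awake clusters 0 and 3 were at 347 and 357 CPM, and the anesthesia clusters between 291 and 299 CPM. Cluster 7 stood apart, with 204 CPM awake and 133 CPM under anesthesia. Thinned cells with a UMI were 48.1% and 43.1%, and 83.9% and 77.8% unthinned. In endothelial-like cells the thinned shares were 19.8% and 38.4%.

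Several receptor genes were read from the same cell. After thinning, microglia-like cells had UMIs of a median of 2 of the 10 receptor genes in both libraries, with means of 2.19 ± 0.997 (SD over cells) awake and 2.16 ± 1.08 under anesthesia. Cells with none were 2.65% awake and 5.18% under anesthesia. Pairs were found together about as often as their separate shares would give. Over the 20 awake and 24 anesthesia pairs for which at least 50 shared cells would follow from the product of their shares, the observed number was 0.830 to 1.11 times that product awake and 0.815 to 1.09 times under anesthesia. Gpr183 and Gpr84 were found together least often among the awake pairs, in 362 cells where the product gives 436. In the anesthesia library the same pair was found in 778 cells, where the product gives 862.

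The genes most like the 3 most abundant receptor genes were listed by Pearson's r of log2(CPM + 1). This was done across 22 cluster-by-library groups of at least 50 cells, as a description over groups that share their libraries. The groups included endothelial-like, macrophage-like and unnamed clusters, so r does not describe microglia-like cells alone. Gpr34 was at 220 CPM in awake endothelial-like cells. Among 9425 genes, Otulinl (0.98), Bin1 (0.97) and Itgb5 (0.97) were most like Gpr34. Cks2, Bcl2a1b and Il1a (each 0.88) were most like Gpr84. Sipa1 (0.97), Rps6ka1 (0.93) and Cttnbp2nl (0.91) were most like Adgrg1.

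Among the 8 measured receptor genes, macrophage-like cells differed from microglia-like cells most in Gpr65. The 50 awake cells held 49 Gpr65 UMIs, 124 CPM (91.6 to 164), and the 42 anesthesia cells held 36, 49.6 CPM (34.8 to 68.7). These levels were higher than in microglia-like cells of the same library by 4.03 (3.57 to 4.46) and 1.749 (1.22 to 2.23) on the log2 scale. Thinned macrophage-like cells with a Gpr65 UMI were 11 of 48, 22.9% (12.0 to 37.3), and 4 of 42, 9.52% (2.66 to 22.6). Gpr132, on 1 awake and 6 anesthesia UMIs, was higher than in microglia-like cells by 2.67 (1.17 to 3.86) on the log2 scale under anesthesia. The macrophage-like Gpr65 level was lower under anesthesia, with a log2 ratio of -1.32 (-1.98 to -0.67), whereas the microglial Gpr65 level was higher.

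The macrophage-like cells of the libraries were not alike in content, and this moved with the Gpr65 difference. Their 10 border-associated macrophage markers summed to 4776 CPM awake and 1600 CPM under anesthesia, with none at 0. Their 10 microglial markers summed to 57.4% of the microglia-like level awake and 87.1% under anesthesia, and median depths were 7056 and 13146 UMIs. The part of this in the Gpr65 difference was not tested. The 3 most abundant receptor genes stood within the range of the single microglial markers, 35.4% to 80.1% awake and 80.1% to 105% under anesthesia. Gpr34 was at 57.1% and 87.0% of its microglia-like level, Gpr84 at 47.4% and 88.5%, and Adgrg1 at 58.4% and 85.5%. For Gpr183 the macrophage-like level was 124 CPM (91.6 to 164) awake and 214 CPM (181 to 250) under anesthesia, 136% and 109% of the microglia-like level.

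**Figure D5:**
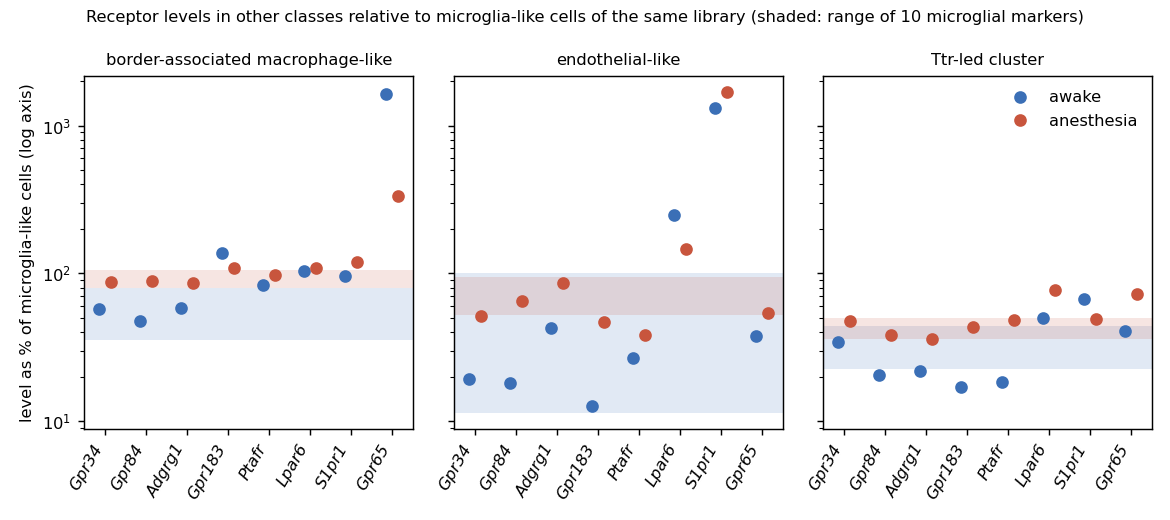
Level of 8 receptor genes in border-associated macrophage-like cells, endothelial-like cells and the Ttr-led cluster as a percentage of the microglia-like level of the same library, on a log axis. Shaded bands span the 10 microglial markers (blue awake, red anesthesia); Gpr65 in macrophage-like cells and S1pr1 in endothelial-like cells lie far above them.

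Lpar6 was also higher in endothelial-like than in microglia-like cells, at 110 CPM (86.8 to 137) awake and 61.4 CPM (47.8 to 77.7) under anesthesia. Gpr34, Gpr183, Gpr84, Ptafr and Adgrg1 were below their microglia-like levels there in both libraries. The endothelial-like levels of Gpr34, Gpr183, Gpr84 and Adgrg1 were higher in the anesthesia library, while the intervals for Ptafr and Gpr65 held 0. The microglial markers behaved likewise, at 30.9% of their microglia-like sum awake and 61.1% under anesthesia. In the 21 awake and 3 anesthesia neutrophil-like cells, Gpr65 had 7 UMIs and 1 UMI, and S1pr1 had 3 UMIs and 1 UMI.

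The genes around these receptors were counted from lists of the pathway, to be read beside the 13.2% higher and 12.0% lower among all measured genes. Of 41 other lipid-sensing GPCR genes, 11 were measured, of which 5 were at least 1.5-fold higher and 1 lower under anesthesia, 45.5% and 9.09% of those measured, with a median log2 ratio of 0.29. The prostaglandin receptor gene Ptger4 had a log2 ratio of 1.10 (0.93 to 1.27), from 8.40 to 17.98 CPM. Ptger1 had 0.87, the cannabinoid receptor gene Cnr2 0.75, and the cysteinyl leukotriene receptor gene Cysltr1 -0.72 on the log2 scale. Of 25 other orphan and proton-sensing GPCR genes, 12 were measured, 1 was higher (8.33%) and 0 lower, and the median was -0.22. Those furthest from 0 were Tmem87a at 0.70, Gpr157 at 0.57, Gpr165 at -0.55 and Gpr180 at -0.53. Of 21 other adhesion GPCR genes, 4 were measured, and Adgrl2 alone was past 1.5-fold, at 0.69. Adgre1, which encodes F4/80, was at -0.10, and Adgra3 and Adgrl1 were both at 0.01.

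Among 32 genes for making and breaking down the ligands, 22 were measured, and 2 were higher and 2 lower. These are 9.09% each way, below the 13.2% and 12.0% of all measured genes, and the median log2 ratio was -0.22. Sgpl1, the sphingosine 1-phosphate lyase gene, went from 100.9 to 167.7 CPM, a log2 ratio of 0.73 (0.68 to 0.78). Sphk2, a sphingosine kinase gene, was at -0.59, and Plpp1, a lipid phosphatase gene, at -0.78. Enpp2, which encodes the lysophosphatidic acid-producing enzyme autotaxin, was at 0.75, but it also leads the Ttr-led cluster. The choroid plexus markers summed to 42.6 CPM awake and 64.8 CPM under anesthesia in microglia-like cells, and their part in the Enpp2 value was not tested. Of 24 G protein genes, 17 were measured and 1 was past 1.5-fold, Gng10 at 0.70, with Gna13 at 0.51, Gng3 at -0.49 and Gna11 at -0.44. Of 12 GPCR kinase and arrestin genes, 11 were measured. The arrestin-domain genes Arrdc3, at 1.38 (1.27 to 1.496), and Arrdc2, at 1.23 (1.07 to 1.39), were higher. Txnip was at 0.53 and the beta-arrestin gene Arrb1 at -0.54.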

How the data were processed

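UMI counts were deposited per gene and barcode, not normalized. Per the submitters' processing notes, bcl2fastq, Cell Ranger 3.1.0 and GRCm38 were used. Cell Ranger 4.0.0 wrote the matrices, per the file headers. Which version made the counts could not be settled, and strand use is not given in the sources used here. All 55450 identifiers matched GENCODE M21 (GRCm38), from which coordinates and lengths were taken.

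Barcodes were kept from 500 genes and 1000 UMIs upward if no more than 10% of their UMIs were mitochondrial. Both libraries were clustered together (scanpy 1.11.5, leidenalg 0.10.2, 2000 variable genes, 30 components, 15 neighbours, resolution 0.6). The receptor genes, mitochondrial, ribosomal protein and hemoglobin genes, and the immediate early, NF-kB and cytokine, and heat shock lists were kept out of the variable genes. To be microglia-like, a cluster needed 7 of 10 markers in 25% of its cells and at most 1 leading marker of other classes together. This was tightened from at most 1 of any single class after cluster 10 was seen, which held Nrgn and Pf4. Other classes needed 3 leading and 3 detected markers. A cluster whose cells had a median depth under 1/3 of their library's, with none of its own markers leading, stayed unnamed, as did cluster 6 (178 awake and 282 anesthesia cells), which had Gpr183 among its leading genes. Scrublet called 0 awake and 1 anesthesia cell doublets, too few for a working call, and its calls were not used.

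UMIs were summed per library and class and scaled to CPM. Ratios carry exact conditional binomial (Clopper-Pearson) 95% intervals, CPM exact Poisson and shares exact Clopper-Pearson intervals, which describe counting error alone. No test was made, as each group has 1 library. Cells were thinned to 2000 UMIs for shares, leaving out 102 awake and 132 anesthesia microglia-like cells. A gene counted as measured with 200 UMIs, and as higher or lower at 1.5-fold. A count of 0 allows 3 counts. On Poisson counts simulated for 11390 genes at the depth of these libraries, the ratio intervals covered the true value for 95.2% of genes. The intervals assume this same model, so this checked the calculation and not the spread of the real counts.

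The named genes were the 10 receptor genes, up to 4 measured genes furthest from 0 per list, 3 microglial reference genes and the 3 most alike genes for each of 3 receptor genes. The receptor genes and lists were chosen with earlier results of these data known. Alternatives covered scaling, GC content and length, cell weights and filters, doublet scores, clustering, fold, the UMI minimum and thinning. An alternative without cells with an endothelial-marker UMI, and CPM for the 42 macrophage-like cells of the anesthesia library, were added after seeing the data.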

Additional observations from a re-analysis of the deposited data

Results flagged for a closer look

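In 8 cases a receptor gene went one way in microglia-like cells and the opposite way in another class, with both intervals clear of 0. The search covered the 10 receptor genes in macrophage-like, endothelial-like, neutrophil-like, Ttr-led and other unnamed cells. Of all 11390 measured genes, 78.8% had a microglia-like interval clear of 0. How often opposite directions occur over all genes was not counted, so 8 cannot be called many or few. The difference between the classes was not tested, and each class is 1 library per group.

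Gpr65 had a log2 ratio (anesthesia over awake) of -1.32 in macrophage-like cells and 0.96 in microglia-like cells. Gpr84 had 0.78 in macrophage-like and 1.73 in endothelial-like cells, beside -0.12 in microglia-like cells. Gpr34 had 0.66 in endothelial-like cells, beside -0.76, and Adgrg1 had 0.79 in endothelial-like cells, beside -0.23. The macrophage-like class had under 50 cells in a library, with 50 awake and 42 anesthesia cells. In the other such classes, Gpr34 had 0.75 and Adgrg1 2.51 in the 21 awake and 3 anesthesia neutrophil-like cells. Gpr84 had 0.78 in the Ttr-led cluster. The sum of the microglial markers in these classes, as a share of the microglia-like level, was higher under anesthesia as well, 87.1% beside 57.4% awake in macrophage-like cells, and 61.1% beside 30.9% in endothelial-like cells, 62.1% beside 19.3% in neutrophil-like cells and 43.8% beside 36.6% in the Ttr-led cluster. Its part in the 8 values was not tested.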

How the results depend on the processing

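Over up to 12 alternatives per gene, 119 log2 ratios were recomputed and 1 reversed: Gpr84 was at 0.11 with the trend on GC content and transcript length removed, and at -0.49 within clusters. Gpr34 (-0.92 to -0.66), Gpr183 (0.81 to 1.15) and Gpr65 (0.87 to 1.001) stayed past 1.5-fold under all 12. S1pr1 (0.58 to 0.79) did so under 11, and without cells with an endothelial-marker UMI 2 receptor genes were higher instead of 3. Lpar6 ranged from -0.52 to -0.03. With a fold of 2, 1 receptor gene was higher and 0 were lower. Of 30 share differences under other thinning, 2 reversed, both of Gpr132, at -0.0253 percentage points with 1000 UMIs and -0.0126 with 4000. Of 20 macrophage-like levels, 0 moved at resolution 1.2, but the class there, 51 and 43 cells, was nearly the same size. With each library clustered on its own it held 46 awake and 55 anesthesia cells, and its levels were not recomputed. What caused the shifts between alternatives was not tested. No paired analysis was possible because each group has 1 library, and none could be left out. Depth limits Gpr132 and Lpar5, and the macrophage-like values rest on 50 and 42 cells.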
